A study of Mus musculus with 8 samples.

Results

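The 10 genes described here encode ligands, receptors, a ligand-binding protein and intracellular feedback of the TGF-beta and activin pathway. They are Tgfb1, Tgfb2, Tgfb3 and Inhba (ligands), Tgfbr1, Tgfbr2 and Tgfbr3 (receptors), Fst (follistatin) and Smad3 and Smad7 (signal and feedback). They were found by their symbols among the 41457 genes of the deposited tables, and each symbol matched 1 gene. All 10 had enough reads to be tested.

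The RNA came from keratinocytes (KCs), the epithelial cells of the epidermis, which were isolated from tail skin of adult wildtype C57BL/6 mice. The cells were untreated and grew in serum-free medium with low calcium, and they were divided when nearly confluent. Poly(A) RNA was sequenced from 4 samples after 1 week and 4 samples after 3 weeks of culture, which the series describes as independent experiments. The study states, however, that batches of KCs compared between 1 and 3 weeks were the same, so samples share cells between the times. Numbers in the names of the deposited tables, taken here as preparation numbers, show this in part. They are 46, 49 and 90 at both times, 47 at 1 week alone and 57 at 3 weeks alone. The main fit did not pair the samples. These are primary cultures of wildtype cells, so neither group carried a deletion or a transgene.

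In this pathway a dimeric ligand binds a pair of serine/threonine kinase receptors, type II and type I, and the type I receptor phosphorylates SMAD2 and SMAD3, which enter the nucleus with SMAD4. TGF-beta ligands are secreted in a latent form and must be released from it, activins are neutralized by follistatin, and SMAD7 is induced by the pathway and blocks the type I receptor. In the epidermis TGF-beta is known to restrain the division of KCs.

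Between 13896807 and 20026084 reads were counted on exons per sample, of which 81.6% to 84.7% mapped to a single place. All 7 KC markers examined were detected in every sample, with 2 of the 7 called lower and 0 higher. The summed RPKM of the list (reads scaled by exon length and by mapped reads) was 13330 to 15665 at 1 week. At 3 weeks it was 8117 to 9624. Krt5 and Krt14 made up most of this sum, and Krt5 most of its fall (6039 to 6384 RPKM, then 1938 to 2581 RPKM). The 7 fibroblast markers together reached 3.14 to 5.38 RPKM at 1 week and 2.31 to 4.63 at 3 weeks, and the 6 melanocyte markers 3.25 to 21.0 and 1.28 to 5.60 RPKM. Endothelial and leukocyte markers stayed below 1 RPKM in sum in every sample, with Cd207 and Trdc at 0 throughout, and of the Merkel cell markers only Krt20 was above 0.1 RPKM, at 0.283 to 0.529 RPKM in the 3-week samples. The part of these cell types in the results was not tested. Replicate 4 of the 3-week samples stood apart: its root-mean-square log2 distance to the nearest sample of its group was 0.797, against 0.392 to 0.579 for the other 7 samples. Where leaving it out changed a call or moved a value of the 10 genes by over 1.5-fold, the value without it is given too.

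Fold changes give 3 weeks over 1 week. They were fitted to exon reads by edgeR with TMM scaling, and the p-values of its quasi-likelihood test were adjusted over 12590 genes, with a threshold of 0.05. Over all these genes the median was 0.03 for the fitted log2 values and -0.16 for log2(RPKM + 0.1), so RPKM values make falls look slightly larger. In simulated counts with 200 changed genes, 92.9% of genes changed by 2 on the log2 scale were recovered, and 19.8% of those changed by 1. In the data 4127 genes were called, which makes the adjustment milder, so these shares need not hold here. A p above the threshold does not show that a member was unchanged.

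Of the 10 members, 4 passed the threshold. Tgfb2 and Tgfb3 rose, and Tgfb1 and Fst fell, while Inhba, the 3 receptor genes, Smad3 and Smad7 did not pass. The background was 32.8% of all tested genes called, 15.7% higher and 17.0% lower at 3 weeks. In limma on log2(RPKM + 0.1), which is not centred by TMM, the calls leaned to falls, with 1313 higher and 3089 lower against 1981 and 2146, and 1 member was higher and 3 were lower, Tgfbr1 passing in place of Tgfb2. The share of members called was thus near that of all genes. The median log2 fold change of the 10 members was -0.10. The RPKM values of the groups did not overlap for Tgfb1, Tgfb2, Tgfb3 and Tgfbr1, against 37.0% of all tested genes. Without 3 weeks replicate 4, 6 members passed, against 36.5% of all genes tested in that fit. Smad7 joined the members that rose (17.8% of all genes) and Tgfbr3 those that fell (18.7%). With the preparation as a block, over the 6 samples of the 3 shared preparations, only Fst passed. Of all genes 3109 were called in that fit, 1316 higher and 1793 lower.

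**Figure D1:**
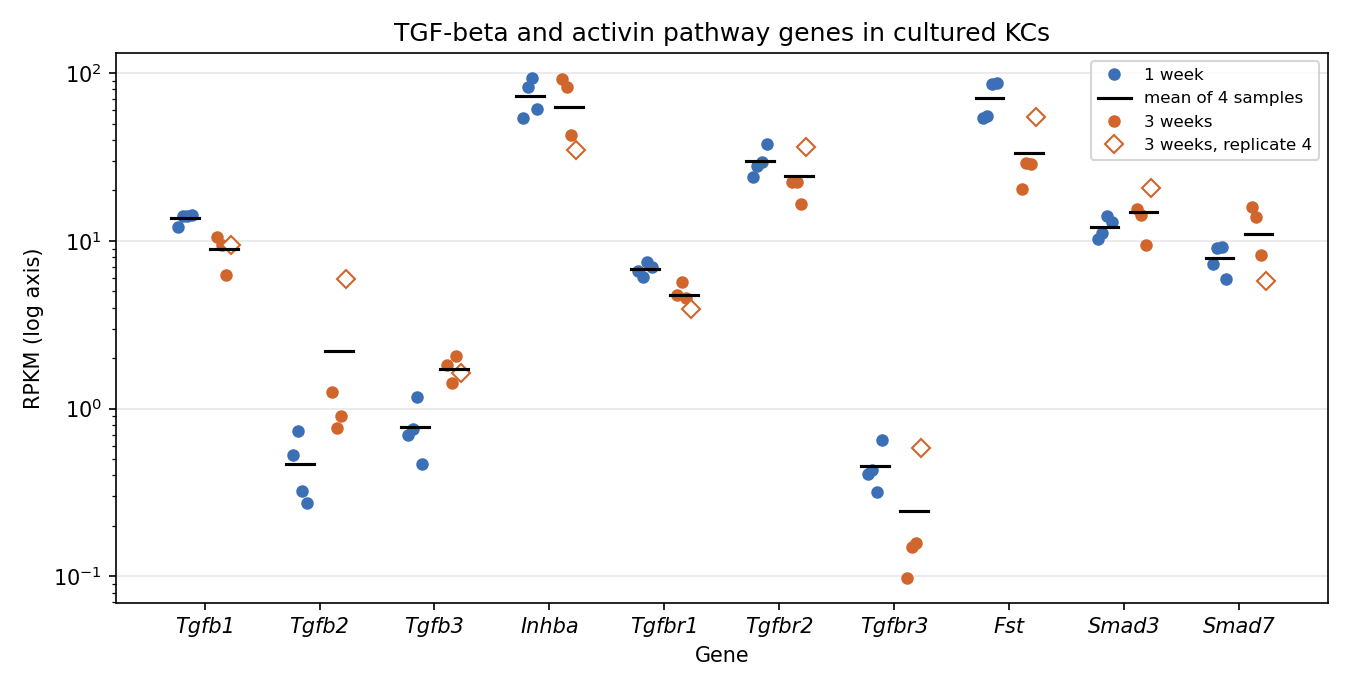
Level of each of the 10 genes in each of the 8 samples, as RPKM on a log axis, with 1-week and 3-week samples side by side; each point is 1 sample, the open diamond is 3 weeks replicate 4, and bars show the mean of each group of 4. Tgfb2, Tgfb3, Tgfb1 and Tgfbr1 have no overlap between the groups, and replicate 4 at 3 weeks lies far above the others for Tgfb2 and Tgfbr3.

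The order of the levels, per exon length, opened with Inhba, Fst and Tgfbr2 at both times and ended with Tgfbr3. The place of Inhba rests on reads of which at most 14.4% were unique. From unique reads alone its mean was below those of Fst, Tgfbr2, Tgfb1 and Smad3 at both times and below that of Smad7 at 3 weeks. At 1 week the sequence was Inhba, Fst, Tgfbr2, Tgfb1, Smad3, Smad7, Tgfbr1, Tgfb3, Tgfb2 and Tgfbr3. Among neighbours in this order the ranges of Inhba and Fst, Tgfb1 and Smad3, Smad7 and Tgfbr1, Tgfb3 and Tgfb2, and Tgfb2 and Tgfbr3 overlapped. At 3 weeks Smad3 and Smad7 stood above Tgfb1, and Tgfb2 above Tgfb3. From all reads the latter order came from replicate 4 alone: in the other 3 samples Tgfb3 was the higher, with means of 1.77 against 0.974 RPKM. From unique reads, Tgfb2 was the higher in replicates 1 (1.23 against 0.730 RPKM) and 2 (0.756 against 0.683 RPKM) too. Tgfb3 was then the higher only in replicate 3. At 1 week the unique-read means were 0.463 RPKM for Tgfb2 and 0.448 RPKM for Tgfb3, the reverse of the order from all reads. At 3 weeks the ranges of neighbours, from all reads, overlapped at every step except between Tgfb1 and Tgfbr1 and between Tgfb3 and Tgfbr3.

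The 3 TGF-beta ligand genes moved in different directions. Tgfb1 was the most abundant of them in every sample and fell, while Tgfb2 and Tgfb3, which started at under 1.2 RPKM, rose. Bulk RNA cannot tell fewer cells of a type from less RNA per cell, here or in the results that follow.

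Tgfb1 (chr7:25687002-25705077, GRCm38, plus strand) measured 12.1, 14.0, 14.1 and 14.2 RPKM in replicates 1 to 4 at 1 week and 10.5, 9.48, 6.24 and 9.40 RPKM at 3 weeks. Every 3-week sample was below every 1-week sample, and the 1-week samples lay close together. The mean went from 13.6 ± 1.02 to 8.91 ± 1.85 RPKM (SD, n = 4 each), a log2 fold change of -0.46 (SE 0.14, adjusted p = 0.0336) or 1.37-fold lower. The call was narrow. It was lost without any 1 of the 4 1-week samples (adjusted p of 0.0531, 0.0734, 0.0750 and 0.0828 without replicates 1 to 4) and without 3 weeks replicate 2 (0.0732), and kept without 3 weeks replicate 4 (-0.46, adjusted p = 0.0396). It was also lost with the preparation as a block (-0.38, adjusted p = 0.145).

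Tgfb2 (chr1:186622792-186705989, minus strand) measured 0.526, 0.738, 0.325 and 0.274 RPKM at 1 week and 1.25, 0.767, 0.904 and 5.96 RPKM at 3 weeks. The groups did not overlap, although replicate 2 at 3 weeks was barely above replicate 2 at 1 week, and replicate 4 at 3 weeks was far above all other samples. These values rest on 27 to 88 reads at 1 week and on 73 to 507 reads at 3 weeks. The mean rose from 0.466 ± 0.212 to 2.22 ± 2.50 RPKM (SD, n = 4 each), with a log2 fold change of 2.37 (SE 0.68, adjusted p = 0.0270). Without 3 weeks replicate 4 the 3-week mean was 0.974 ± 0.249 RPKM (n = 3) and the log2 fold change 1.24, still past the threshold (adjusted p = 0.0270), so this library decided the size of the rise. The call was lost without replicate 1, 3 or 4 at 1 week (adjusted p = 0.0652, 0.0703 and 0.0745), and with the preparation as a block (2.35, adjusted p = 0.0502).

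Tgfb3 (chr12:86056745-86079041, minus strand) measured 0.699, 0.761, 1.17 and 0.469 RPKM at 1 week and 1.81, 1.42, 2.07 and 1.63 RPKM at 3 weeks. All 3-week samples were above all 1-week samples, and replicate 4 at 3 weeks lay within its group. The mean rose from 0.776 ± 0.294 to 1.73 ± 0.275 RPKM (SD, n = 4 each), with a log2 fold change of 1.34 (SE 0.30, adjusted p = 0.00884). The call was kept with any 1 sample left out (adjusted p from 0.00653 to 0.0304) but lost with the preparation as a block (1.21, adjusted p = 0.0622).

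The reads of Tgfb3 were less certain than those of Tgfb1 and Tgfb2. They numbered 28 to 57 at 1 week and 79 to 115 at 3 weeks, and only 40.4% to 66.7% of them mapped to a single place. The 1-week samples had 30, 34, 26 and 18 such unique reads and the 3-week samples 46, 38, 55 and 39, again without overlap. Their log2 fold change was 0.98 (edgeR on unique reads, adjusted p = 0.0186, with 33.5% of all genes called in that fit). In addition, 5149 bases of the gene overlap Ttll5 on the other strand, which had 206 to 260 reads at 1 week and 171 to 303 at 3 weeks (log2 fold change 0.32, adjusted p = 0.195). As use of the strand is not stated, reads from the shared stretch cannot be assigned to either gene.

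Expressed as shares of the summed RPKM of the 3 genes, Tgfb1 made up 90.8%, 90.3%, 90.4% and 95.03% at 1 week and 77.5%, 81.3%, 67.7% and 55.3% at 3 weeks. Tgfb2 contributed 1.83% to 4.76% at 1 week and 6.57% to 35.1% at 3 weeks, and Tgfb3 contributed 3.14% to 7.51% and 9.60% to 22.5%. Neither of the minor ligands overlapped between the groups in its share. The Tgfb3 shares count all of its reads, of which 40.4% to 66.7% were unique. The 3 genes summed to 14.8 ± 1.07 RPKM (SD, n = 4) after 1 week and to 12.9 ± 3.28 RPKM (SD, n = 4) after 3 weeks, with 3 weeks replicate 4 above all other samples at 17.0 RPKM.

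**Figure D2:**
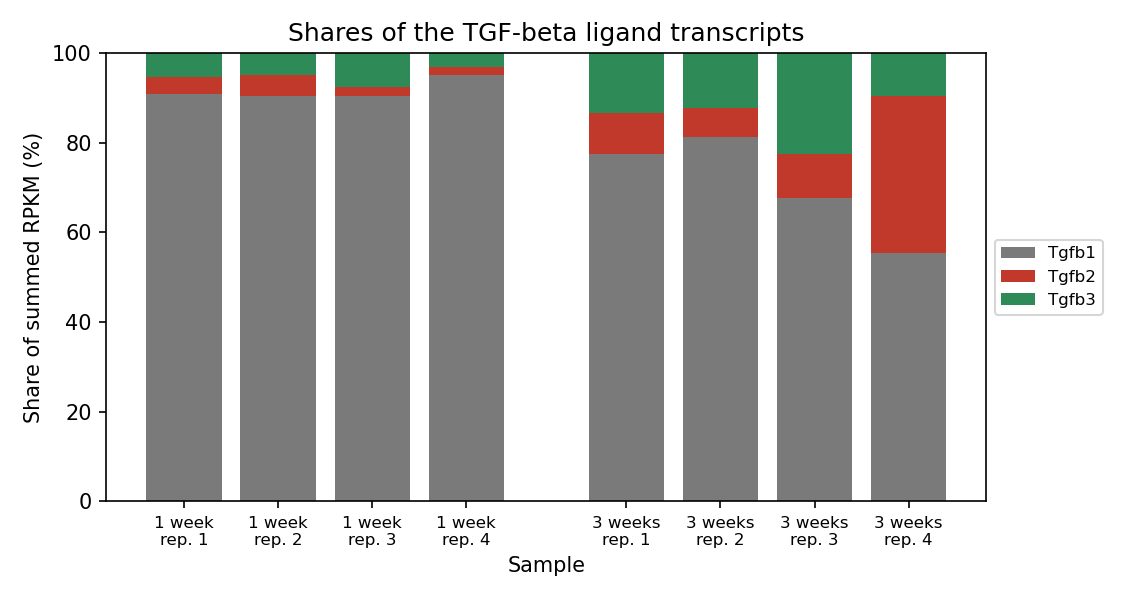
Share of Tgfb1, Tgfb2 and Tgfb3 in their summed RPKM (%), stacked to 100% for each of the 8 samples. Tgfb1 takes at least 90.3% in every 1-week sample and at most 81.3% in every 3-week sample, and the Tgfb2 share of 35.1% in replicate 4 at 3 weeks is the highest of all.

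A ratio taken within a sample does not depend on the scaling between samples. The Tgfb2/Tgfb1 ratio was 0.0193 to 0.0527 at 1 week and 0.0809 to 0.634 at 3 weeks, a log2 difference of 2.44, or 1.81 without 3 weeks replicate 4. The Tgfb3/Tgfb1 ratio was 0.0330 to 0.0830 at 1 week and 0.150 to 0.332 at 3 weeks, a log2 difference of 1.86. From unique reads it was lower, 0.0212 to 0.0385 at 1 week and 0.0693 to 0.159 at 3 weeks. Each ratio was higher in every 3-week sample than in any 1-week sample. With 4 against 4 samples there are 70 arrangements, and the two-sided exact permutation test gave p = 0.0286 for each ratio, the smallest p this design allows. After Benjamini-Hochberg adjustment over 5 ratios each had p = 0.0714 in this exact test, above the threshold.

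The stretches upstream of Tgfb1 and Tgfb2 are shown because these ligand genes moved in opposite directions. The RefSeq promoter table (GRCm38.p6) held 6 of the 10 members, namely Tgfb1, Tgfb2, Inhba, Tgfbr1, Tgfbr2 and Smad3. The 250 bases before each start were searched on both strands for the TATA box TATAAA, the E-box CACGTG, the GC box GGGCGG and the SMAD-binding motif CAGAC. These were found in 12.4%, 6.02%, 32.7% and 42.2%, respectively, of 32851 promoter windows of the same length. Capitals mark the matches, a match on the other strand being printed as it reads on this strand (CCGCCC for the GC box), and no matches overlapped.
Tgfb1, chr7:25686752-25687001, plus strand: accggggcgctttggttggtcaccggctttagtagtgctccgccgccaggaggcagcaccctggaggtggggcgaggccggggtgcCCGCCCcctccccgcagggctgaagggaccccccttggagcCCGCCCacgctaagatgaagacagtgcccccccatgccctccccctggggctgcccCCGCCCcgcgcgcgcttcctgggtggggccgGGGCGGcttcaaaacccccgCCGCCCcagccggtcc
Tgfb2, chr1:186705990-186706239, minus strand: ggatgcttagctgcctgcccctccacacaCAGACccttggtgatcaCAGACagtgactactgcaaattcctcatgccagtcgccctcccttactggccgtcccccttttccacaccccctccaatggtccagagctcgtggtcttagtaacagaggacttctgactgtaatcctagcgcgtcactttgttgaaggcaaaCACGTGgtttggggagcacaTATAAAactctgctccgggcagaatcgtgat
The Tgfb1 window held 5 GC boxes and none of the other motifs. The Tgfb2 window held 1 TATAAA, 31 bases before the start, 1 CACGTG, 51 bases before it, and 2 CAGAC, but no GC box. Of the other 4 windows, that of Inhba held 1 TATAAA, 91 bases before the start, those of Tgfbr1 and Smad3 held 2 GC boxes each, and that of Tgfbr2 held 1 CAGAC. A match of letters is a description of these windows and says nothing about what binds there.

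Inhba (chr13:16011851-16031621, plus strand) encodes the beta-A subunit, whose dimer is activin A. From all reads it had the highest mean level of the 10 genes at both times, but not from unique reads. It measured 53.9, 82.1, 93.5 and 60.7 RPKM at 1 week and 91.8, 82.6, 42.8 and 34.7 RPKM at 3 weeks. The groups overlapped throughout. Replicates 1 and 2 at 3 weeks were as high as the highest 1-week samples, and replicates 3 and 4 were below all of them. The means were 72.6 ± 18.4 and 63.0 ± 28.4 RPKM (SD, n = 4 each), and the log2 fold change was -0.05 (95% interval -0.76 to 0.67, adjusted p = 0.927), an interval that holds both a rise and a fall of more than 1.5-fold. The sign of this value differed between the samples left out, from -0.27 without 3 weeks replicate 1 to 0.16 without 3 weeks replicate 4.

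Only 11.2% to 14.4% of the Inhba reads mapped to a single place. The 1-week samples had 857, 1472, 1234 and 955 unique reads and the 3-week samples 1459, 1051, 501 and 405. On the RPKM scale this was 10.04 ± 2.85 and 7.84 ± 3.91 (SD, n = 4 each). Their log2 fold change was -0.23 (edgeR, adjusted p = 0.643), and that of the reads across exon junctions was -0.10 (adjusted p = 0.841, with 28.3% of all genes called in that fit). Of 6332 stretches of 59 bases, the length of the reads, in the Inhba transcripts, 6 occurred in transcripts of other annotated genes, whereas 8.27% of those of Tgfb3 did. Why so few of the Inhba reads were unique was not tested. The level of Inhba relative to other genes is uncertain for this reason, and the direction of its change is not settled either.

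The type I receptor gene Tgfbr1 (chr4:47353222-47414931, plus strand) measured 6.64, 6.06, 7.48 and 7.01 RPKM at 1 week and 4.79, 5.69, 4.55 and 3.92 RPKM at 3 weeks. The groups did not overlap in RPKM but did overlap after TMM scaling. With means of 6.80 ± 0.600 and 4.74 ± 0.734 RPKM (SD, n = 4 each), the log2 fold change was -0.36 (SE 0.15, adjusted p = 0.0904). It passed only in limma on RPKM values, without TMM scaling (-0.52 on the log2(RPKM + 0.1) scale, adjusted p = 0.0209).

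Tgfbr2 (chr9:116084293-116175360, minus strand) encodes the type II receptor that binds the ligand first, and it was the most abundant receptor gene. It measured 24.1, 28.0, 29.7 and 37.7 RPKM at 1 week and 22.3, 22.4, 16.6 and 36.2 RPKM at 3 weeks. Replicates 1 to 3 at 3 weeks were below all 1-week samples, and replicate 4 was above 3 of them. The log2 fold change was -0.14 (SE 0.22, 95% interval -0.64 to 0.35, adjusted p = 0.648) with and -0.37 (adjusted p = 0.105) without 3 weeks replicate 4. The Tgfbr2/Tgfbr1 ratio was 3.63 to 5.37 at 1 week and 3.94, 4.66 and 3.65 in 3 of the 3-week samples, but 9.23 in replicate 4. The log2 difference of 0.20 (-0.10 without replicate 4) did not pass (exact permutation test, p = 0.657, adjusted p = 0.821).

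Tgfbr3 (chr5:107106570-107289629, minus strand) encodes betaglycan, a co-receptor that presents TGF-beta ligands, TGF-beta 2 in particular, to the type II receptor. It was the lowest of the 10 genes, with 0.409, 0.430, 0.319 and 0.650 RPKM at 1 week (30 to 75 reads) and 0.0984, 0.149, 0.158 and 0.582 RPKM at 3 weeks (12 to 56 reads). Replicates 1 to 3 at 3 weeks were below all 1-week samples, whereas replicate 4 was above 3 of them. Over all samples the log2 fold change was -0.74 (SE 0.53, adjusted p = 0.309). Without 3 weeks replicate 4 it was -1.55 (adjusted p = 0.00955), so that the outcome rested on this library. The same library had the highest levels of Tgfb2 and the second highest of Tgfbr2.

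Fst (chr13:114452290-114458951, minus strand) encodes follistatin, the secreted protein that binds and neutralizes activins. It measured 54.1, 55.5, 86.2 and 86.8 RPKM at 1 week and 20.5, 29.2, 28.6 and 54.4 RPKM at 3 weeks. Replicates 1 to 3 at 3 weeks were far below all 1-week samples, and replicate 4 fell between replicates 1 and 2 at 1 week, so that the groups overlapped by this sample. The mean fell from 70.7 ± 18.3 to 33.2 ± 14.7 RPKM (SD, n = 4 each), a log2 fold change of -0.93 (SE 0.30, adjusted p = 0.0396) or 1.91-fold. Without 3 weeks replicate 4 the log2 fold change was -1.24 (adjusted p = 0.00522). The call was lost without replicates 1, 3 or 4 at 1 week (adjusted p = 0.0504, 0.0949 and 0.101) and without replicates 1, 2 or 3 at 3 weeks (0.0854, 0.0998 and 0.0659).

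The Fst/Inhba ratio set follistatin against the activin subunit gene in the same sample. It was 1.00, 0.676, 0.921 and 1.43 at 1 week and 0.223, 0.354, 0.669 and 1.57 at 3 weeks. The lowest 3 values were from 3 weeks, but so was the highest, replicate 4. The log2 difference of -0.86 (-1.37 without replicate 4) did not pass (exact permutation test, p = 0.257, adjusted p = 0.429). From unique reads the ratios were higher, 4.84 to 9.93 at 1 week and 1.64 to 12.4 at 3 weeks, since most Inhba reads drop out, and they overlapped likewise.

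Smad3 (chr9:63646767-63757994, minus strand), the receptor-activated transcription factor, measured 10.3, 11.1, 14.0 and 12.9 RPKM at 1 week and 15.4, 14.3, 9.47 and 20.6 RPKM at 3 weeks. Of the 3-week samples 3 were above all 1-week samples and replicate 3 was below all of them. The log2 fold change was 0.45 (SE 0.19, adjusted p = 0.104). Without 3 weeks replicate 3 it was 0.57 and passed (adjusted p = 0.0320). Introns gave a second readout of Smad3, with 4 to 17 reads at 1 week and 10 to 34 at 3 weeks and a log2 fold change of 1.00 (SE 0.43, edgeR on intron reads, adjusted p = 0.164).

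Smad7 (chr18:75367529-75395935, plus strand), the inhibitory SMAD, measured 7.27, 9.02, 9.21 and 5.94 RPKM at 1 week and 15.9, 13.9, 8.23 and 5.75 RPKM at 3 weeks. Replicates 1 and 2 at 3 weeks were above all other samples, replicate 3 was within the 1-week range and replicate 4 was the lowest of all. The log2 fold change was 0.64 (SE 0.30, adjusted p = 0.134) over all samples and 0.86 (adjusted p = 0.0147) without 3 weeks replicate 4. The Smad7/Smad3 ratio was 0.460 to 0.813 at 1 week. At 3 weeks it was 1.03, 0.977 and 0.869 in replicates 1 to 3, above all 1-week samples, and 0.279 in replicate 4, below all of them. Over all samples the log2 difference was 0.12 (exact permutation test, p = 0.83 before and after adjustment), and without replicate 4 it was 0.57.

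**Figure D3:**
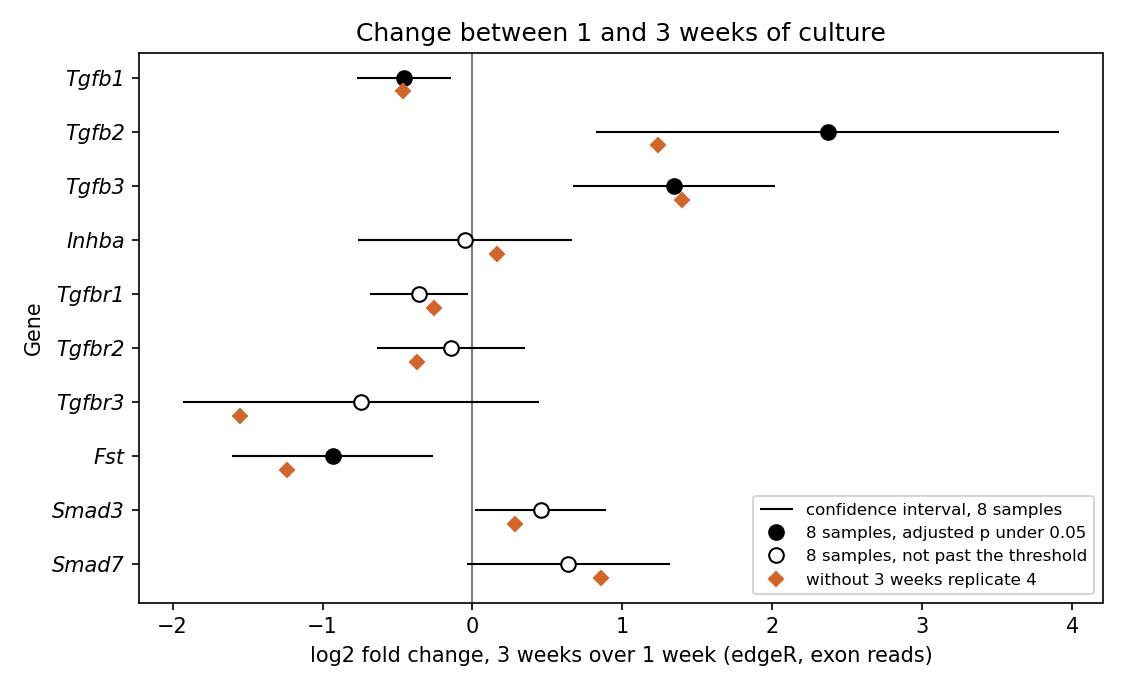
Log2 fold change of each of the 10 genes, 3 weeks over 1 week, from edgeR on exon reads, with 95% intervals per gene, not adjusted for the number of genes; filled circles passed the adjusted p of 0.05 over all 8 samples and open circles did not. Diamonds give the value without 3 weeks replicate 4, which is lower for Tgfb2 (1.24 against 2.37) and further from 0 for Tgfbr3 (-1.55 against -0.74).

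The variation among the 3-week samples was larger than among the 1-week samples for 9 of the 10 genes in coefficient of variation, Tgfb3 being the exception. In all, 3 members had enough intron reads to be tested, and none passed in edgeR (8.76% of 4016 genes did), while Smad3 alone had an unadjusted p under 0.05 (0.0332). Besides Smad3 these were Inhba and Tgfbr2. For Inhba, with 44 to 88 intron reads at 1 week and 43 to 89 at 3 weeks, the log2 fold change was 0.01 (SE 0.32, adjusted p = 0.991). For Tgfbr2, with 9 to 41 and 10 to 43 intron reads, it was 0.17 (SE 0.48, adjusted p = 0.862). The other 7 members had at most 18 intron reads in any sample.

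The genes with patterns most like those of the members with the largest calls were sought by Pearson's r of log2 CPM (reads scaled to the library) over the 8 samples, which is a description only. For Tgfb2 these were Tmem167b (r = 0.99), Znrf2 (0.98) and Nfe2l3 (0.98). All of them were highest in 3 weeks replicate 4, at 42.5, 29.5 and 27.4 RPKM, while their other samples lay between 16.7 and 25.3, 14.6 and 19.1, and 6.71 and 11.3 RPKM. For Tgfb3 they were Atat1, Atp6v0e2 and St3gal5 (r of 0.98 each), whose groups did not overlap. The choice by likeness favours this, and likewise the height of 3 weeks replicate 4 in the genes like Tgfb2. St3gal5, the sialyltransferase that makes the ganglioside GM3, measured 2.73 to 5.06 RPKM at 1 week and 6.67 to 8.42 RPKM at 3 weeks.

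Other genes of the pathway were taken from lists by role, chosen with earlier results of these data known. They held 70 genes, of which 61 were tested. Of these, 17 rose, 4 fell and 40 did not pass (14 rose and 10 fell in limma on log2(RPKM + 0.1)), so that 34.4% were called against 32.8% of all tested genes. Their median log2 fold change was 0.35, against 0.03 for all genes. Genes that release or activate latent TGF-beta and genes that the pathway is known to induce held most of the rises, while none of the 4 other ligand genes, 6 other receptor genes and 5 transducer genes tested passed. The log2 fold changes of Smad2 and Smad4, for example, were -0.29 and -0.21 (adjusted p = 0.141 and 0.239). In each of these 3 groups 1 gene had an unadjusted p under 0.05 in edgeR (Lefty1, Acvr1b and Dab2, seen after testing). Dab2, which encodes an adaptor protein, passed without 3 weeks replicate 4 (1.11, adjusted p = 0.0143, against 0.92 and 0.0579 with it). Of these groups DESeq2 called only Dab2, and limma on log2(RPKM + 0.1) called Lefty1, Smad2 and Smad4.

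Of 12 tested genes for latency and activation, 5 rose and 1 fell, with a median log2 fold change of 0.92. The shares over all tested genes were 15.7% higher and 17.0% lower. Thbs1, whose product thrombospondin-1 can activate latent TGF-beta, rose from 196 ± 55.5 to 944 ± 486 RPKM (log2 fold change 2.40, SE 0.40, adjusted p = 0.00240). Itgb8, an integrin subunit that pairs with the alpha-v chain and binds the latent complex, rose from 0.311 ± 0.114 to 1.41 ± 0.642 RPKM (2.34, SE 0.34, adjusted p = 0.00129). Bmp1, a secreted metalloprotease, rose from 8.22 ± 1.42 to 24.2 ± 8.47 RPKM (1.71, SE 0.23, adjusted p = 0.000942). The groups of these 3 genes did not overlap. Also called were Itgav, the alpha-v chain (1.05, adjusted p = 0.00498), and the membrane protease gene Mmp14 (0.99, adjusted p = 0.0172, and 0.0673 without 1 week replicate 1). Ltbp1, which encodes a protein that anchors latent TGF-beta in the matrix, fell (-1.31, adjusted p = 0.00838), from 3.00 to 6.08 RPKM at 1 week to 0.854 to 2.16 RPKM at 3 weeks. Itgav, Mmp14 and Ltbp1 were named after their values were seen.

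Of 3 tested extracellular antagonists besides Fst, only Fstl3 passed. It encodes follistatin-like 3, another activin-binding protein, and moved opposite to Fst. It measured 22.2, 25.1, 21.2 and 19.1 RPKM at 1 week and 59.2, 47.2, 27.9 and 36.0 RPKM at 3 weeks. All 3-week samples were above all 1-week samples, with a log2 fold change of 1.11 (SE 0.20, adjusted p = 0.00357). Unique reads were 45.0% of its reads, and they gave a log2 fold change of 1.05. From all reads, the Fstl3 level at 3 weeks exceeded that of Fst in replicates 1 and 2 and was below it in replicates 3 and 4. At 1 week Fst was the higher in every sample. Of the Fst reads at least 96.7% were unique, so the order of these levels at 3 weeks is less certain than the change of Fstl3.

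Of 10 tested intracellular inhibitors, Pmepa1 rose and Tgif2 fell. Pmepa1, which encodes a membrane protein that sequesters receptor-activated SMADs, went from 50.3 ± 10.7 to 78.3 ± 20.2 RPKM (log2 fold change 0.79, SE 0.20, adjusted p = 0.0150), with overlapping groups and an adjusted p of 0.0602 without 1 week replicate 1. Tgif2, a gene for a corepressor of SMADs, went from 3.00 ± 0.441 to 1.204 ± 0.338 RPKM (-1.16, SE 0.21, adjusted p = 0.00380), with only 14.4% of its reads unique.

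Of 16 tested genes listed as induced by TGF-beta, 8 rose and 1 fell, with a median log2 fold change of 0.68. Of all tested genes, 15.7% rose and 17.0% fell. Fn1, the fibronectin gene, rose from 16.4 ± 8.19 to 410 ± 360 RPKM (4.78, SE 0.68), and Tgm2, the gene of a transglutaminase, from 1.85 ± 1.14 to 26.2 ± 10.3 RPKM (3.97, SE 0.50). The contractile genes Acta2 (3.15) and Tagln (2.53) and the matricellular gene Ctgf (2.15) also rose, as did the cell cycle inhibitor genes Cdkn2b (1.70) and Cdkn1a (0.87). The groups of these 7 genes did not overlap, as held for 37.0% of all tested genes. Tagln, Ctgf, Cdkn2b and Cdkn1a were named by a rule that asks for groups without overlap, so this adds nothing for them. The calls of all 7 were kept with any 1 sample left out. The uniquely mapped share was 29.5% for Tgm2, 32.6% for Tagln and 66.0% for Ctgf.

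The genes of this list that follow were named after their values were seen. Col4a1, a basement membrane collagen gene, had overlapping groups and a log2 fold change of 1.88 (adjusted p = 0.0348). Its call was lost without any 1 of the 1-week samples (adjusted p from 0.0540 to 0.0994), and without 3 weeks replicate 1 (0.0865) or 4 (0.0704). Tgfbi, a matrix gene named for its induction by TGF-beta, fell (-1.74, SE 0.34, adjusted p = 0.00487), from 7.19, 6.37, 11.6 and 18.7 RPKM at 1 week to 3.51, 3.10, 2.73 and 2.35 RPKM at 3 weeks. Leaving out 3 weeks replicate 4, Timp1, a protease inhibitor gene, was called higher (0.70, adjusted p = 0.0444, against 0.35 and 0.618 with it) and Snai2, a repressor gene, lower (-0.57, adjusted p = 0.0326, against -0.78 and 0.0501 with it). Snai2 passed in 11 of 20 alternatives in all, among them DESeq2 with all samples (-0.77, adjusted p = 0.0218). The genes of this list thus did not move one way.

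Of 5 genes listed as repressed by TGF-beta, Myc, which drives proliferation, fell from 54.3 ± 6.39 to 23.8 ± 9.99 RPKM (log2 fold change -1.05, SE 0.26, adjusted p = 0.0129). Id2, an inhibitor of basic helix-loop-helix factors, rose from 0.714 ± 0.366 to 2.60 ± 0.281 RPKM (2.05, SE 0.33, adjusted p = 0.00214). Id1 of the same family rose as well (1.62, SE 0.54, adjusted p = 0.0464). This call was lost with any 1 of the 8 samples left out (adjusted p from 0.0503 to 0.109). It was also lost with the preparation as a block (0.85, adjusted p = 0.147). Id1 had at most 88 reads in a sample and Id2 at most 119. Id3 (-0.20, adjusted p = 0.665) and Cdc25a (-0.74, adjusted p = 0.0734), named to complete the list, did not pass. Over all tested genes, 15.7% were higher and 17.0% lower.

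**Figure D4:**
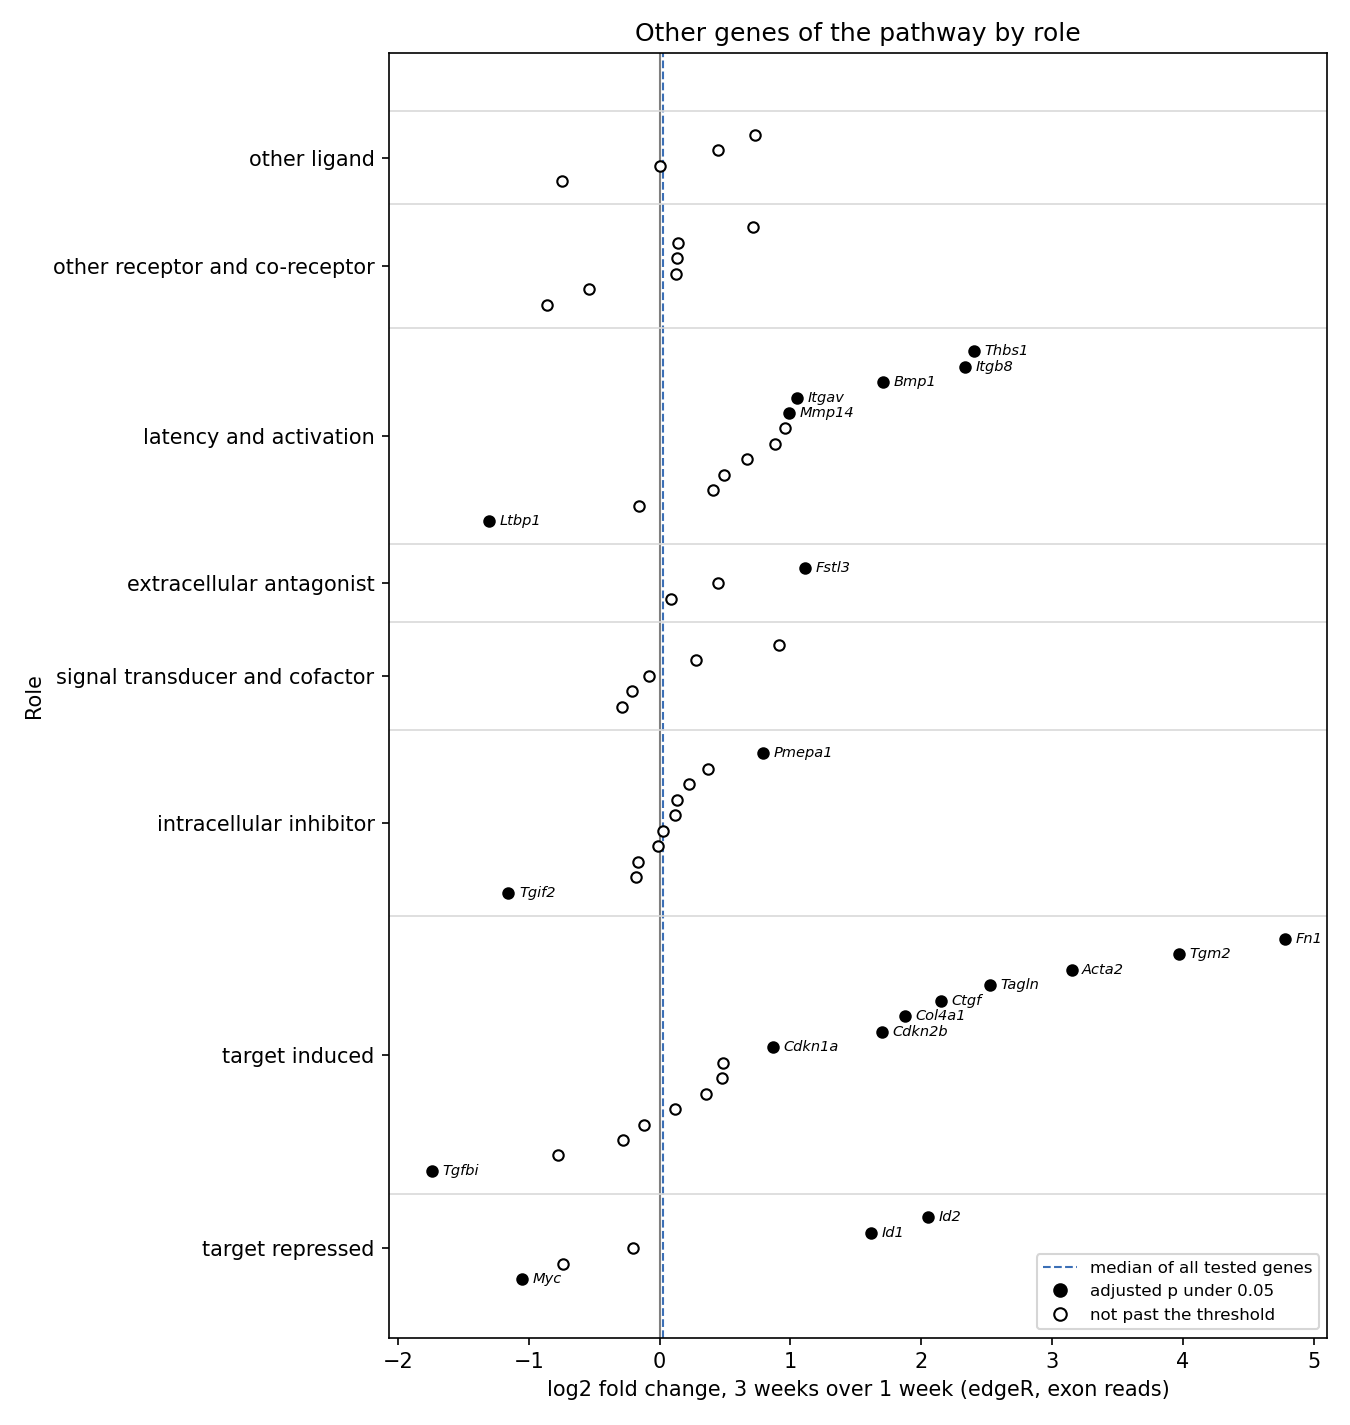
Log2 fold change of the 61 other tested pathway genes, 3 weeks over 1 week (edgeR on exon reads), grouped by role; filled points passed the adjusted p of 0.05 and carry the gene symbol, open points did not pass, and the dashed line is the median of all tested genes (0.03). The 5 rises in latency and activation and the 8 among induced targets stand to the right, with Ltbp1 and Tgfbi far to the left in the same groups.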

How the data were processed

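The authors prepared poly(A) libraries, sequenced them as single-end reads of 59 bases, and trimmed adapter sequence, and mapped the reads to the GRCm38 genome in the CLC Genomics Workbench (version 12) at default settings. The annotation release and the use of strand are not given in the sources used here. The deposited count columns hold whole, unnormalized reads per gene (exon, unique exon, gene, intron and junction reads). The deposited RPKM values, with decimal commas, equal exon reads scaled by exon length and by mapped reads.

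Groups came from the labels. The test on exon reads of all genes was that of edgeR 4.0.16 under R 4.3.3 (filterByExpr, TMM, glmQLFit and glmQLFTest, no pairing, Benjamini-Hochberg adjustment). Ratios of RPKM were compared by exact permutation tests with SciPy 1.17.1 under Python 3.11.15, and figures were drawn with matplotlib 3.10.9. Alternatives were DESeq2 1.42.0, upper-quartile scaling, no filter or at least 10 counts in every sample, unique or all gene reads, limma 3.58.1 on log2(RPKM + 0.1) or log2(RPKM + 1), the replicate or preparation number as a block, and each sample left out. Junction reads, and unique reads without 3 weeks replicate 4, were chosen after seeing the data. The procedure was tested on simulated data with 200 changed genes.

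The 10 members and the lists were chosen with earlier results of these data known. Other pathway genes were named if they were among the 3 largest changes called in their role, or called without overlap at a mean of at least 10 RPKM, and exceptions are stated. A gene of the lists is not reported here. No 2 samples of a group agreed within sampling noise (smallest chi-square per degree of freedom 15.3). The p-values set the difference between the groups against the spread between samples within them. Except with a block, samples were taken as unpaired, although some preparation numbers occur at both times. RefSeq sequences are of GRCm38.p6.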

Additional observations from a re-analysis of the deposited data

Results flagged for a closer look

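In each group of 4 samples, the highest or lowest value was compared with the others by Dixon's ratio of its gap to the whole range at its 95% critical value. Of 82 groups tested, over the members, their ratios and the named pathway genes, 6 held such a sample. Chance alone flags about 1 in 20 groups.

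Of these, 3 concerned replicate 4 at 3 weeks, with 5.96 RPKM for Tgfb2, 0.582 RPKM for Tgfbr3 and a Tgfb2/Tgfb1 ratio of 0.634, each above the other 3 samples of its group. Among the 1-week samples, replicate 1 was low for Tgfb1 (12.1 RPKM), and replicate 3 was high for Id2 (1.26 RPKM). The Tgfb3/Tgfb1 ratio of 0.332 in replicate 3 at 3 weeks was above those of the other 3-week samples.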

How the results depend on the processing

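The number of members called stayed at 4 with DESeq2, upper-quartile scaling, both other filters, unique reads, all gene reads and limma (there with Tgfbr1 in place of Tgfb2). It was 2 with the replicate number as a block (Tgfb3 and Fst), 1 with the preparation number as a block over the 3 preparations present at both times (Fst), 1 with junction reads (Tgfb1; Tgfb3 and Tgfbr3 had too few), and 1 to 6 with each sample left out, when 3015 to 4861 of all genes and 17 to 24 of the other pathway genes were called. The replicate numbers pair the samples only in part, since samples numbered 1 and 4 share a preparation number between the times and those numbered 2 and 3 do not. Same-numbered samples correlated at -0.23, -0.15, -0.15 and 0.25 in their deviations from the group means, and those of 1 preparation at -0.23, 0.20 and 0.25. All genes called numbered 2867 with the replicate block, 3109 with the preparation block and 2794 to 4882 over all alternatives.

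The log2 fold change of Inhba changed sign with the preparation block (0.0026) and with unique reads without 3 weeks replicate 4 (0.016), and ranged from -0.27 to 0.16 with each sample left out. With each sample left out, log2 differences ranged from -0.10 to 0.35 for Tgfbr2/Tgfbr1 and from -0.062 to 0.57 for Smad7/Smad3, and intron log2 fold changes from -0.15 to 0.24 for Inhba and from -0.12 to 0.76 for Tgfbr2. The log2 fold change of Timp1 was -0.10 and -0.072 in limma with pseudocounts of 0.1 and 1, and -0.23 with the preparation block, against 0.35. Intron reads of Smad3 passed when scaled by exon-read library sizes (1.58, adjusted p = 0.0438). The causes were not tested. With 3 samples against 4 the exact test cannot go below p = 0.0571. The counts of Tgfb2, Tgfb3 and Tgfbr3, at 12 to 115 reads in most samples, limit what can be said of these genes.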
